A study of Mus musculus and Homo sapiens with 22 samples.

Results

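The 10 genes described here encode heterogeneous nuclear ribonucleoproteins (hnRNPs), and they were taken as a fixed list of symbols: Hnrnpa2b1, Hnrnpc, Hnrnpa1, Hnrnpd, Hnrnpk, Hnrnpl, Hnrnpm, Hnrnpu, Rbmx and Hnrnph1, with the upper-case symbols for human cells. They are 10 of the 56196 genes in the count files. N6-methyladenosine (m6A) sites came from miCLIP2, in which an m6A antibody is crosslinked to poly(A)+ RNA by UV light and the modified base is read where reverse transcription stops, followed by m6Aboost, a trained model that tells m6A sites from antibody background. Site lists were used for mouse embryonic stem cells (mESCs) that were wild-type (WT), for the human embryonic kidney line HEK293T and for purchased mouse heart RNA at inputs of 1 µg, 300 ng, 100 ng and 50 ng with 1 library each (the sample titles give the last 3 in µg and the study's methods in ng). RNA-seq gene counts were used for 3 WT and 3 Mettl3 knockout (KO) mESC libraries, both lines being grown with serum and LIF. Mettl3 is the catalytic subunit of the m6A methyltransferase. The KO line came from an earlier study, and its clone number, the strain of the mESCs and the age and strain of the heart donors are not given in the sources used here. The mESC and HEK293T lists hold 1 value per site for all replicates, so sites have no replicate spread. The authors kept peaks found in more than 1 replicate of a condition. A heart list from 1 library cannot meet that rule, so mESC and heart lists were not filtered alike.

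hnRNPs bind nascent and mature transcripts in the nucleus and act in splicing, packaging, export and decay. 3 of them have been proposed as nuclear readers of m6A: hnRNP A2/B1, and hnRNP C and RBMX (hnRNP G), for which m6A is thought to loosen RNA structure and open a nearby binding site. Many hnRNPs also control their own transcripts, often through exons that send the RNA to nonsense-mediated decay (NMD). m6A itself is placed mainly in the motif DRACH (D is A, G or T, R is A or G, H is A, C or T), most often in long exons and around stop codons.

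The RNA-seq libraries held between 22746733 and 27254245 gene counts. The counts of Mettl3 were 560, 698 and 612 in WT libraries and 462, 669 and 457 in KO libraries, a log2 fold change of −0.50 (SE 0.138, adjusted p = 0.0134 by edgeR, or 0.00281 with the replicate number as a block), with 26.4, 26.6 and 28.9 CPM (counts scaled to library size with TMM factors) against 18.4, 22.6 and 16.9. Its transcript was thus still counted in the KO libraries, without overlap of the groups, and where the deletion lies in the gene is not given in the sources used here, so this does not check the knockout. The paper itself reports, by mass spectrometry of poly(A)+ RNA, that m6A was significantly depleted in the KO cells. The 8 pluripotency markers were all tested, at WT means between 73.9 and 1546 RPKM (CPM per kb of exons), and 2 of them (Dppa5a and Tdgf1) were called lower in KO. Of 8 fibroblast markers, 3 were tested, with Thy1 called higher in KO (0.888 to 2.03 RPKM) and Pdgfrb lower (1.38 to 0.748), and the other 6 were at or below 0.175 RPKM in both group means. Their part in the comparisons was not tested. Among 8 cardiomyocyte genes, Ttn had 195 sites in the 1 µg heart list and Ryr2 had 23. Tnnt2 had 2, Myh6, Actn2 and Mybpc3 had 1 each, and Nppa and Tnni3 had 0, whereas all 8 had 0 in the mESC list. Nothing in the labels says that replicates came from separate cultures, so p-values measure the spread between these libraries, which may in part be technical.

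In mouse, m6A sites in these hnRNP genes lay mostly in Hnrnpl and Hnrnpm, and in HEK293T cells HNRNPU and RBMX held the most. The mESC list held 15 sites in the 10 genes out of 25456, of which 12 were in Hnrnpl or Hnrnpm. Hnrnpl (ENSMUSG00000015165.16), a regulator of splicing that binds CA repeats, had 8 sites, 6 of them in annotated exons. Exonic counts per gene take exons of any annotated transcript, so for Hnrnpl they include intron sites covered only by retained-intron transcripts. Hnrnpm (ENSMUSG00000059208.15), a splicing regulator that binds GU-rich RNA, had 4. Hnrnpa2b1, Hnrnpa1 and Hnrnpk had 1 each, and Hnrnpc, Hnrnpd, Hnrnpu, Rbmx and Hnrnph1 had 0. The 1 µg heart list held 20 sites in 7 of the genes out of 46421, with 12 in Hnrnpl, 2 each in Hnrnpm and Rbmx, and 1 each in Hnrnpa2b1, Hnrnpa1, Hnrnpk and Hnrnph1. At 300 ng there were 2 sites, both in Hnrnpm, and at 100 and 50 ng there were 0. The HEK293T list held 18 sites in 9 of the genes out of 36556, with 5 in HNRNPU, 4 in RBMX, 3 in HNRNPL and 1 each in HNRNPA2B1, HNRNPC, HNRNPA1, HNRNPK, HNRNPM and HNRNPH1. Hnrnpd (ENSMUSG00000000568.15, chromosome 5, 99955935 to 99978938, minus strand), whose protein AUF1 binds AU-rich elements and acts in mRNA decay, was the gene without a site in any of the lists of either species. Its longest coding transcript of 6811 nt holds 114 DRACH motifs. The lists give neither read depth nor unmodified peaks, so a gene without a site was not shown to lack m6A.

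**Figure D1:**
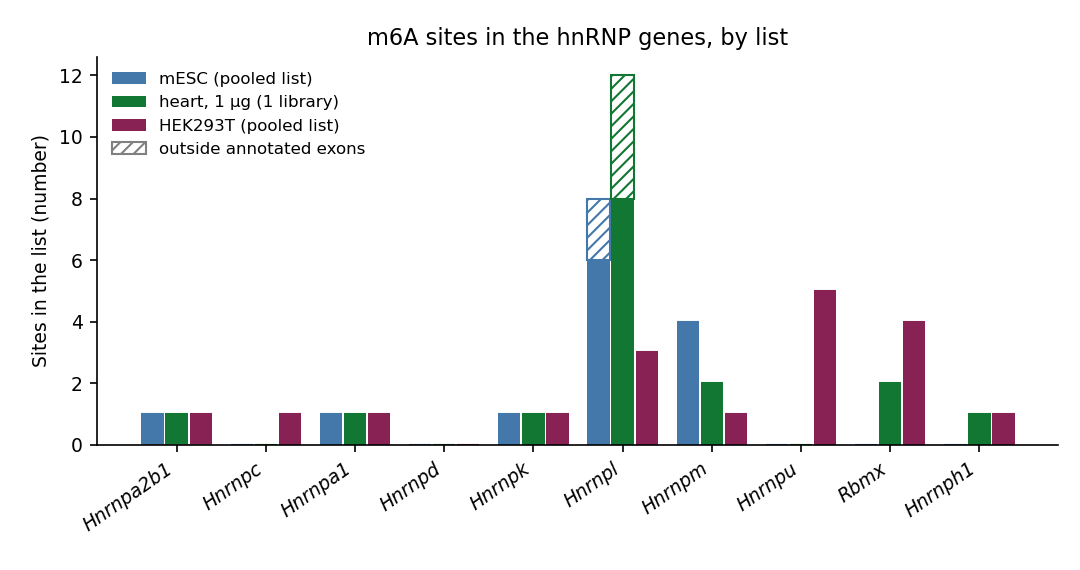
Number of m6A sites (vertical axis) in each of the 10 hnRNP genes in the mESC, 1 µg heart and HEK293T lists (bars), with sites outside annotated exons hatched. Hnrnpl holds 8 mESC and 12 heart sites, and HNRNPU and RBMX hold 5 and 4 in HEK293T cells.

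Apart from Rbmx, whose level is uncertain because of coding copies described below, the genes tested were among the more abundant mRNAs. Of the 9 genes tested in the RNA-seq, 7 had at most 1 exonic mESC site, and their median was 1. Over the 3361 tested protein-coding genes at 13.01 RPKM or more (the upper quartile by WT level), 41% had at most 1 site and the median was 2. Per length, the 9 genes carried 0.25 mESC sites per kb of exons and those 3361 genes 0.756. The longest coding transcripts of the 9 genes held 480 DRACH motifs, of which 6 were mESC sites (1.25%, Wilson 95% interval 0.574 to 2.7), against 4.97% (4.87 to 5.06) in the 3361 genes. These intervals cover counting error only, and motifs of 1 transcript are not independent. In both sets the share leaves out exonic sites that lie outside DRACH or outside the longest coding transcript. Of the 13 exonic mESC sites in the hnRNP genes, 6 entered it. The supply of motifs was close in both sets, with 18 DRACH motifs per kb in the 9 genes and 20 in the 3361. The share of motifs over 100 nt from an exon junction was 50.8% and 50.4%, but it varied between the 9 genes. Hnrnpd, which had no site, held 96 of the 244 such motifs, out of its 114. Hnrnpl had 5 of 39, Hnrnpa2b1 7 of 35, Hnrnpa1 12 of 41, Hnrnph1 13 of 42 and Hnrnpk 25 of 58. Hnrnpc had 32 of 55, Rbmx 21 of 38 and Hnrnpm 33 of 58. Whether these shares bear on the number of sites was not tested. The 1 µg heart list differed in part from the mESC list. Of the 9 genes, 22.2% had no exonic heart site, beside 36.2% of the 3361, both medians were 1, and 1.46% of motifs were heart sites, beside 4.17%. The 3361 genes were picked by their mESC level and no heart RNA-seq was used, so they are not matched to the 9 by level in heart. The 21 other hnRNP family genes tested carried an mESC site at 2.57% of their motifs (1.89 to 3.50). In HEK293T cells 12 of the 22 other family genes had a site, with up to 12 in HNRNPF.

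**Figure D2:**
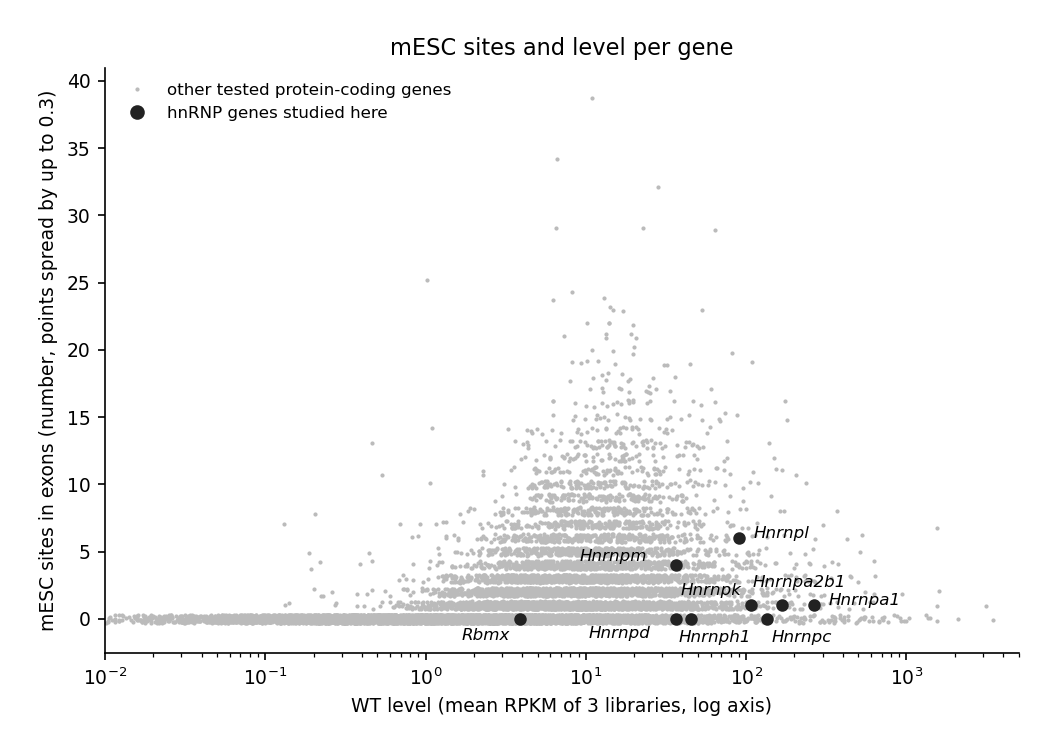
Exonic mESC sites per gene (vertical axis) against the mean WT level in RPKM (log axis) for tested protein-coding genes above 0.01 RPKM, with 9 hnRNP genes in black. Hnrnpa1, Hnrnpa2b1, Hnrnpk and Hnrnpc lie above 100 RPKM with 1, 1, 1 and 0 sites, and Hnrnpl at 89.8 RPKM has 6. Exons of any annotated transcript are counted, retained-intron transcripts included.

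Some sites lay at matching places in mouse and human. The 21 nt around each of the 27 distinct mouse sites were compared with those around the HEK293T sites of the same gene, and 3 pairs differed at 3 bases or fewer. They are shown 5′ to 3′ on the transcript strand, read from the GRCm38 and GRCh38 genomes with T for U, and the capitals mark the 5 bases centred on the modified A. The Hnrnpm pair lies at chr17:33650237-33650257 (mouse, minus strand) and chr19:8485743-8485763 (human, plus strand). The Hnrnpa1 pair lies at chr15:103241179-103241199 and chr12:54281485-54281505, both on the plus strand. The Hnrnph1 pair lies at chr11:50385902-50385922 (plus) and chr5:179614810-179614830 (minus). The Rbmx pair, at chrX:57387061-57387081 and chrX:136874120-136874140 (both minus), differs at 4 bases and is shown because both sites lie 12 nt after the stop codon.
Hnrnpm mouse: ctggtcatGGACCgcatgggc
HNRNPM human: ctggtcatGGACCgcatgggc
Hnrnpa1 mouse: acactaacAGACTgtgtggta
HNRNPA1 human: acgctcacGGACTgtgtggta
Hnrnph1 mouse: ttgatcacTGACTcttggtca
HNRNPH1 human: ctgatcacTGACTcttggtca
Rbmx mouse: aacaaacaAAACTtttggacc
RBMX human: aacaaacaAAACTttggacca

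The Hnrnpm windows were identical at 21 bases, and both sites lay in the coding sequence of exon 14, which is 803 nt long in either species, 151 nt from the nearest junction. In mouse this site was in the mESC list with a score of 0.880, above 86.5% of that list, in the 1 µg heart list above 97.2% of its sites, and in the 300 ng heart list. In HEK293T its score was 0.943, above 98.1% of the list, the highest rank of any of the human sites described here. The Hnrnpa1 sites both lay in coding exon 2 of 11 exons, 8 nt from a junction. The mouse Hnrnpa1 site had a score of 0.591, above 15% of the mESC list, and the human site 0.75, above 58.8%. Both Hnrnph1 sites lay just after the stop codon, at 17 nt in mouse and 21 nt in human. The mouse Hnrnph1 (ENSMUSG00000007850.16, chromosome 11, 50376990 to 50386528, plus strand) site was in the 1 µg heart list and not in the mESC list.

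Of the 27 mouse windows, 18 had a match with at most 3 differences somewhere in the human gene, and 5 were identical. In 10 of the 18 the human match kept a DRACH motif at its centre, and 3 of the 18 were HEK293T sites. The window of the Hnrnpa2b1 site occurs unchanged in HNRNPA2B1 but is not in the HEK293T list.

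Hnrnpa2b1 (ENSMUSG00000004980.16, GRCm38 chromosome 6, 51460932 to 51469894, minus strand) encodes the proposed reader hnRNP A2/B1. Its single mouse site was at position 51462012 and was shared by the mESC and 1 µg heart lists. It lay 65 nt after the stop codon in the 3′ UTR of a coding transcript, in exon 11 of 12, and outside the longest coding transcript. Exons of an NMD transcript and of a retained-intron transcript also cover it. Its score was above 22.2% of the mESC list and above 76.8% of the heart list. The HEK293T site of HNRNPA2B1 was another one, an AAACT in the 3′ UTR 260 nt after the stop codon. The mouse window, which is the same in the human gene, reads as follows.
Hnrnpa2b1: tgccacaaAGACTgtaaagtg

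Hnrnpc (ENSMUSG00000060373.15, chromosome 14, 52073377 to 52104028, minus strand) encodes hnRNP C, which binds uridine tracts. It had no mouse site, although its longest coding transcript of 2847 nt holds 55 DRACH motifs, 32 of them over 100 nt from a junction. HNRNPC had 1 HEK293T site, a GGACT in a coding exon of 48 nt, with a score of 0.562 that was above 14% of the list. Rbmx (ENSMUSG00000031134.16, chromosome X, 57383530 to 57393036, minus strand) had 0 mESC sites and 2 heart sites, 8 nt apart, at 12 and 20 nt after the stop codon in the last exon. RBMX had 4 HEK293T sites in its last exon of 992 nt. They lay at 12, 79 and 189 nt after the stop codon and 196 nt before it, and the first 2 of these scored above 93.4% and 97.3% of the list. Hnrnpu (ENSMUSG00000039630.10, chromosome 1, 178321108 to 178337797, minus strand), whose protein SAF-A binds RNA and chromatin, had no mouse site, and HNRNPU had 5. The highest of these, a GAACT 18 nt after the stop codon, scored above 95.2% of the list, and the other 4 lay in the first exon of 927 nt.

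Hnrnpl (chromosome 7, 28808541 to 28822266, plus strand) showed a run of sites inside an intron. Of its 15 distinct mouse sites, 11 lay in intron 6 of the longest coding transcript, which is 3108 nt long, between 112 and 2422 nt from the start of that intron. The mESC list held 5 of the 11 and the heart list 10, with 4 in both. An exon of annotated retained-intron transcripts, reaching from exon 6 into the intron, covers 6 of them. Another, at position 28817373 and only in the heart list, lies in an exon of 70 nt that an NMD transcript uses. The other 4 lay in no annotated exon. Intron 6 sites scored above 13.8% to 56.5% of the mESC list and above 1.28% to 69.6% of the heart list. The GGACA at 28815464 was in the mESC list alone, and the sites at 28815780, 28816116, 28816760, 28817266, 28817373 and 28817774 were in the heart list alone. The windows at 28817313 (both lists) and 28817373 (heart), shown because each occurs without a change in the human HNRNPL gene, are on the plus strand at chr7:28817303-28817323 and chr7:28817363-28817383. Neither human position was in the HEK293T list, and HNRNPL had no site in an intron there.
Hnrnpl 28817313: tgtatttaTGACTgtaaaacc
Hnrnpl 28817373: atctttcaGAACTgtgctaac

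**Figure D3:**
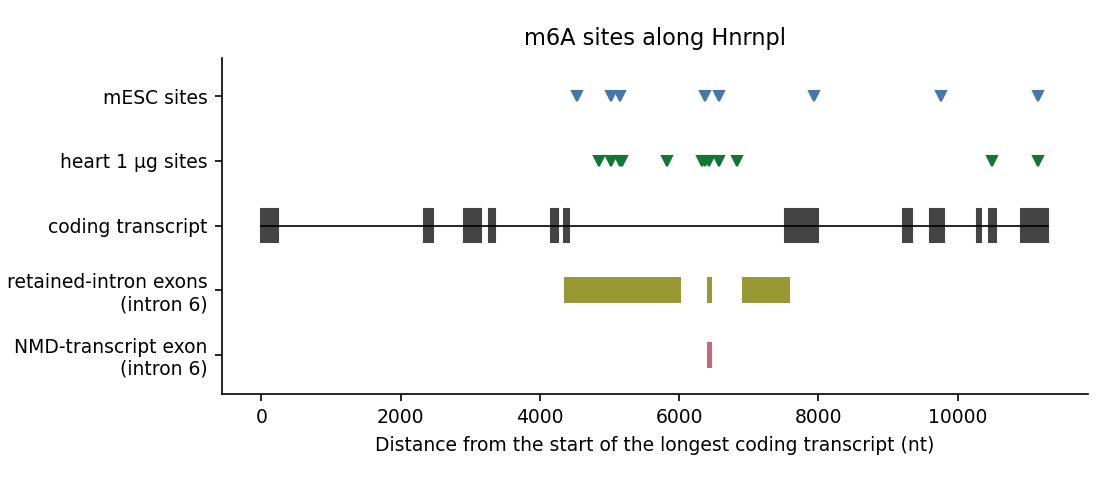
Positions of the mESC and 1 µg heart sites along Hnrnpl, in nt from the start of the longest coding transcript, above its exons (black) and the exons of retained-intron and NMD transcripts that reach into intron 6. Of the 15 distinct sites, 11 fall in intron 6.

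The other 4 Hnrnpl sites lay in exons of the longest coding transcript. The highest-scoring mESC site of the gene was the GAACT at 28822098 in the 3′ UTR, 192 nt after the stop codon, with a score of 0.901 that was above 91.3% of the mESC list, and the heart list shared it. The mESC list alone held GAACT at 28818875, in coding exon 7 of 464 nt with a score of 0.830, and GTACT at 28820695 in coding exon 9, which is outside DRACH and scored above 15.5% of the list. The heart list alone held GGACT at 28821425 in coding exon 11 of 96 nt. The human gene also had sites in exon 11, at 2 other positions, and they scored above 5.79% and 5.96% of the HEK293T list. These 2 positions also lie in an exon of a readthrough gene on the same strand.

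In Hnrnpm (chromosome 17, 33646233 to 33686860, minus strand), 3 of the 4 mESC sites shared 1 long exon. Exon 14 (803 nt, coding) held the GGACC at 33650247 and a GAACG at 33650003 and at 33649802, and the fourth site was a GGACT at 33660310 in exon 10, 5 nt from a junction. GAACG is not a DRACH motif. The GAACG at 33650003 was also in the 1 µg heart list, above 88.7% of its sites, and in the 300 ng list. These GAACG windows lie 201 nt apart, match at 14 of 21 bases and at 12 of the last 13, and are shown with the closest human sequences of exon 14, in which the pentamer read GAGCG. They are at chr17:33649993-33650013 and chr17:33649792-33649812, and the human ones are at chr19:8485987-8486007 and chr19:8486149-8486169. The human sequences were picked by fewest differences, without regard to place in the exon. The one at 8486159 is not as far from the shared GGACC as the mouse GAACG at 33649802, so it need not be the counterpart of that site.
Hnrnpm 33650003: ctgccattGAACGcatgggcc
HNRNPM 8485997: ctgccatcGAGCGcatgggcc
Hnrnpm 33649802: acagcctgGAACGtatgggcc
HNRNPM 8486159: acagcctcGAGCGcatgggcc

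Hnrnpk (ENSMUSG00000021546.18, chromosome 13, 58391142 to 58403343, minus strand), which encodes a poly(C)-binding protein with KH domains, had different sites in the mouse lists. The mESC list held a GGACA in the last exon of 1335 nt, 621 nt after the stop codon, with a score of 0.607, and the heart list an AGACC in coding exon 4 of 85 nt. The single HNRNPK site in HEK293T was a GGACG in coding exon 11. Hnrnpa1 (ENSMUSG00000046434.16, chromosome 15, 103240432 to 103246692, plus strand), a splicing repressor, had its heart site at 103245000, a GGACT that only an NMD transcript covers, in its 3′ UTR. That window also occurs unchanged in HNRNPA1 without a HEK293T call.

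Of the 27 mouse sites, 24 were in DRACH (88.9%, Wilson 95% interval 71.9 to 96.1), beside 92.9% of the whole mESC list and 93.1% of the 1 µg heart list. The 3 others were the GAACG sites of Hnrnpm and the GTACT of Hnrnpl, all in the mESC list. By list, 3 of the 15 mESC sites and 1 of the 20 heart sites in these genes lay outside DRACH. In HEK293T, 13 of 18 sites were in DRACH (72.2%, 49.1 to 87.5), beside 89.3% of that list. The 5 others were a GGACG in HNRNPK, 3 GGACG in the first exon of HNRNPU and a TTACT in RBMX. By the longest coding transcript, 9 mouse sites were coding, 5 in the 3′ UTR and 11 in an intron, and 2 fell outside it. The human sites were 11 coding, 6 in the 3′ UTR and 1 in the 5′ UTR. Between the mESC and 1 µg heart lists, 8 sites had the same position: 5 in Hnrnpl, 2 in Hnrnpm and 1 in Hnrnpa2b1. They were 53.3% of the mESC sites and 40.0% of the heart sites of these genes, beside 59.6% and 32.7% of all sites of the lists.

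Levels in mESCs spanned a wide range. They are compared per length, as RPKM, with the merged exons of all transcripts as the length, which lowers the level of genes with many long isoforms. Hnrnpa1 was highest in WT, at 288, 245 and 264 RPKM, followed by Hnrnpa2b1 at 156, 157 and 187 and Hnrnpc at 137, 134 and 134. Hnrnpk had 103, 99.6 and 120 RPKM and Hnrnpl 93.0, 79.1 and 97.3. None of these 5 genes overlapped its neighbour in WT, although Hnrnpk and Hnrnpl came close.

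Hnrnph1 (48.1, 40.8 and 46.1 RPKM), Hnrnpd (34.1, 27.2 and 48.2) and Hnrnpm (33.4, 28.4 and 47.2) overlapped one another. Hnrnpm shares 1149 nt of its longest coding transcript with the same-strand gene March2, where reads cannot be assigned to 1 gene. Rbmx was far lower as counted, at 3.84, 5.61 and 2.14 RPKM. Its coding copies Rbmxl1 and Gm7324 align to it at 86.7% and 86.9% identity. The division of reads among these genes was not tested, so the Rbmx level is uncertain. In KO, Hnrnpa1 and Hnrnpa2b1 again stood apart, but Hnrnpc (101.4, 82.8 and 103 RPKM) overlapped both Hnrnpk and Hnrnpl. Hnrnph1 (29.8, 24.9 and 26.0 RPKM) then lay below Hnrnpd and Hnrnpm.

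Hnrnpu was not tested, since its WT libraries listed 1, 0 and 1 counts and all KO libraries 0. Srsf1, a splicing factor used by all cells, was likewise listed at 0 in every library, so these entries were not read as levels in the cells, and their cause was not tested.

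**Figure D4:**
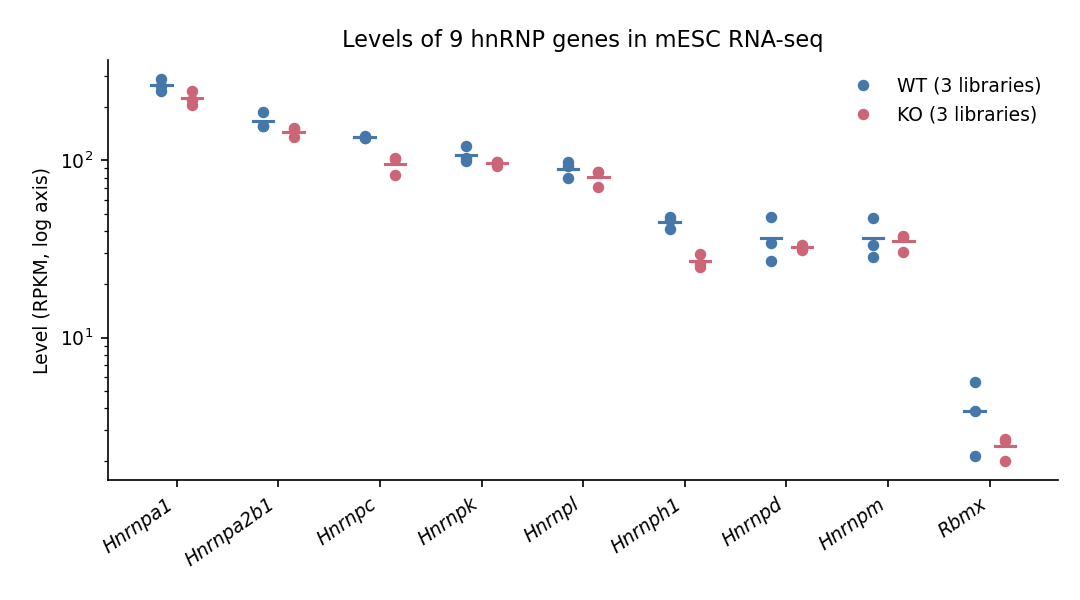
Level in RPKM (log axis) of 9 hnRNP genes in each WT and Mettl3 KO mESC library (points), with group means (bars), ordered by the WT mean. Hnrnpc, Hnrnph1, Hnrnpa2b1 and Hnrnpk have KO values below all WT values, beside 26.9% of all genes tested. The gap is narrow in Hnrnpa2b1 and Hnrnpk. Rbmx has the widest WT spread for its level, from 2.14 to 5.61 RPKM.

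KO was then compared with WT. Among the 9 genes tested, 2 were called (adjusted p up to 0.01), both lower in KO, beside 29.7% of the 15731 genes tested (17.1% higher and 12.6% lower). All 9 had a negative log2 fold change, beside 8055 of the 15731 genes tested, with a median of −0.19 against −0.02 for all genes tested. With scaling by library size only, Hnrnpm turned positive (0.06), and the medians were −0.09 and 0.09. The number of negative values was then 8, beside 7010 of 15731 genes. It was 7 without WT replicate 3 (8185 of 16337 genes) and 8 without KO replicate 2 (8248 of 16083). With Rbmx and Rbmxl1 summed it was 8 (8057 of 15730). Hnrnph1, whose protein binds G runs and regulates splicing, fell the most. It had 281, 238 and 269 CPM in WT and 174, 146 and 152 in KO, so the groups did not overlap. Its log2 fold change was −0.74 (SE 0.115, adjusted p = 0.000607), and it stayed called under each of the other settings tried.

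Hnrnpc had 591, 581 and 580 CPM in WT and 438, 358 and 445 in KO, again without overlap. Its log2 fold change was −0.50 (SE 0.119, adjusted p = 0.00670). This call was lost with scaling by library size only (−0.40, adjusted p = 0.0215) and when a library was left out, with adjusted p of 0.0278 and 0.0110 without WT replicates 1 and 2 and of 0.0245, 0.0257 and 0.0178 without KO replicates 1, 2 and 3. Neither Hnrnph1 nor Hnrnpc had a site in the mESC list.

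**Figure D5:**
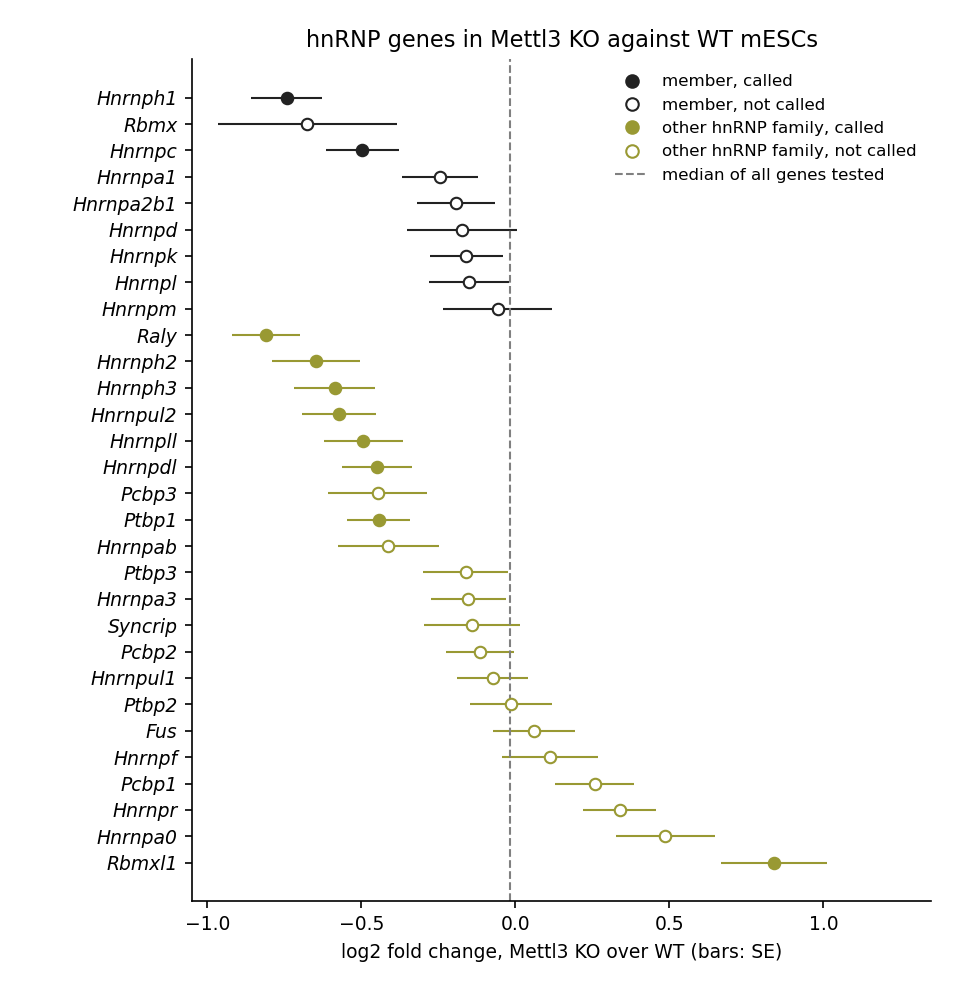
log2 fold change of KO over WT (points, bars are SE) for the 9 hnRNP genes tested and 21 other hnRNP family genes, with genes called at the 0.01 threshold filled. The dashed line is the median of all genes tested, −0.02, and all 9 of the first group lie to its left in this fit. Over all genes tested, 8055 of 15731 had a negative value.

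The other 7 genes were not called. Hnrnpa2b1 had 1026, 1034 and 1228 CPM in WT and 985, 889 and 1002 in KO (log2 fold change −0.19, SE 0.126, adjusted p = 0.233). Hnrnpa1 had 907, 772 and 832 CPM against 778, 646 and 695 (−0.24, SE 0.124, adjusted p = 0.128). The Hnrnpa2b1 ranges did not overlap, and those of Hnrnpa1 overlapped by the lowest WT library only. Hnrnpk, at 668, 644 and 777 CPM against 631, 603 and 637, gave −0.16 (SE 0.117). Retrocopies of Hnrnpk were also counted, with means of 514 counts for Gm7964 and 271 for Gm4130, while a further copy, Gm6350, had 0. Together they amounted to 4.27% to 5.14% of the Hnrnpk counts. Adding them to Hnrnpk left it uncalled. In all, 4 of the 9 genes (Hnrnpa2b1, Hnrnpc, Hnrnpk and Hnrnph1) had KO values below all WT values, beside 26.9% of all genes tested, and none had them above, beside 29.2% (56.1% in either direction).

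Hnrnpl, which held the most sites, had 554, 471 and 579 CPM in WT and 509, 422 and 514 in KO (−0.15, SE 0.129, adjusted p = 0.362), and the groups overlapped. Hnrnpm had 265, 226 and 375 CPM against 293, 241 and 298 (−0.06, SE 0.178), and its sign turned without WT replicate 3 (0.18), without KO replicate 2 (0.04) and with library size only (0.06). Hnrnpd had 251, 200 and 354 CPM against 239, 246 and 228 (−0.17, SE 0.179), and its sign turned without WT replicate 3 (0.077). In Hnrnpm and Hnrnpd, WT replicate 3 was the highest of the 6 libraries.

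Rbmx had the largest change that was not called. Its counts were 352, 638 and 196 in WT libraries and 290, 258 and 305 in KO libraries, a log2 fold change of −0.68 (SE 0.290, adjusted p = 0.0799). In CPM, WT replicate 3 (9.26) lay within the KO range of 8.71 to 11.5, so the groups overlapped, and without it the gene was called (−0.96, adjusted p = 0.00230). It was also called when no filter on low counts was applied (−0.64, adjusted p = 0.00239). A coding copy of Rbmx is Rbmxl1, with a transcript 86.7% identical over 1627 nt. Rbmxl1 rose, at 29.7, 32.0 and 46.6 CPM in WT and 63.9, 56.8 and 73.0 in KO (0.84, SE 0.172, adjusted p = 0.00293). Rbmx held 35.9%, 43.2% and 16.6% of the reads counted in either gene in WT and 15.3%, 13.3% and 13.4% in KO. With the counts of both summed, the change was higher in KO (0.51, adjusted p = 0.00852). How reads were divided between them was not tested. Another coding gene, Gm7324, aligns to Rbmx at 86.9% identity over 1577 nt and was not part of the sum.

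Of the other hnRNP family list, 21 of 22 genes were tested, with a median log2 fold change of −0.15, and 8 were called, 7 lower and 1 higher, beside 29.7% of all genes tested (12.6% lower and 17.1% higher). The largest fall was in Raly, a relative of Hnrnpc, with 212, 211 and 237 CPM in WT and 129, 113 and 134 in KO (−0.81, SE 0.110, adjusted p = 0.000286). The next 5 were the Hnrnph1 relatives Hnrnph2 (−0.65, SE 0.143) and Hnrnph3 (−0.59, SE 0.132), the Hnrnpu relative Hnrnpul2 (−0.57, SE 0.12), the Hnrnpl paralog Hnrnpll (−0.49, SE 0.128) and the Hnrnpd relative Hnrnpdl (−0.45, SE 0.113), at adjusted p between 0.00325 and 0.00987. The higher gene was Rbmxl1. Raly, Hnrnph2 and Hnrnpll had 0 exonic mESC sites, Hnrnph3 1, Hnrnpul2 3 and Hnrnpdl 6. Hnrnph1 and Hnrnph2 align over 1304 nt at 86.0% identity, so their values are uncertain where reads match both. The family count was 11 with the replicate block (8 lower, 3 higher), under which 43.5% of all genes were called. It was 2, 5 and 8 without WT replicates 1, 2 and 3 and 1, 2 and 2 without KO replicates 1, 2 and 3. Over all genes the same fits called 3108, 4130 and 5412, and 2761, 3506 and 3109, of 16083 to 16337 tested. With library size only the family count was 6, with 3 lower and 3 higher, beside 4136 of 15731 genes. That scaling moved the median of all genes from −0.02 to 0.09.

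Of 12 SR protein genes tested, 2 were called, Srsf11 (−1.26) and Tra2a (−0.72), both lower, with a median log2 fold change of −0.34 over the list. With the replicate block 6 were called. The shares over all genes were 29.7%, and 43.5% with the block. The SR count was 1 without WT replicate 1, KO replicate 2 or KO replicate 3. Over all genes these fits called 3108 of 16271, 3506 of 16083 and 3109 of 16133. Of 8 YTH and IGF2BP reader genes, 4 were called, Ythdf1 (0.85), Ythdf2 (1.31) and Ythdc1 (0.84) higher and Igf2bp3 (−0.74) lower, with a median of 0.25, beside the same 29.7%. The SR and reader genes named here, Dppa5a, Tdgf1, Thy1 and Pdgfrb were added after their values were seen. These readers carried an mESC site at 4.97% of their DRACH motifs (Wilson 95% interval 3.64 to 6.74) and SR genes at 3.18% (2.00 to 5.04).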

How the data were processed

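miCLIP2 site lists and RNA-seq gene counts were used as deposited. The authors aligned single-end RNA-seq reads with STAR and deposited raw counts per gene from htseq-count in its reverse-strand mode. They made the site lists by aligning miCLIP2 reads, collapsing reads with the same molecular barcode, calling peaks and running m6Aboost, whose score the mESC and HEK293T files hold as 1 value over all replicates. The deposited heart score has no stated scale and was used only to rank sites. The submitters' processing notes name STAR 2.7.3a and 2.6.1b, SAMtools 1.9, UMI-tools 1.0.0, bedtools 2.27.1 and HTSeq 0.12.4. Builds were GRCm38 and GRCh38. Lists of Mettl3 KO miCLIP2 samples were not analysed here.

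Here, 6 libraries were compared (3 WT, 3 KO) with edgeR 4.0.16 in R 4.3.3: filterByExpr, TMM, a quasi-likelihood test with Benjamini-Hochberg adjustment over 15731 genes, and a threshold of 0.01. Lines that name no gene held 36.7% to 42.7% of reads and were left out. RPKM used merged exons of GENCODE M21. Sites were placed on GENCODE M21 and v44, while the authors used M23 and 31, and a site belonged to a gene whose body held it on the same strand. Pseudogenes and paralogs were matched with blastn. Deviations from the group mean had correlations of 0.122, 0.464 and 0.303 between same-numbered WT and KO replicates, and −0.34 to 0.11 for other pairs. The first value is close to the highest other pair, and centring on group means leaves these values dependent on one another. A fit with the replicate number as a block was also made. Replicates of a group differed by more than sampling noise, with chi-square per degree of freedom of 8.76 or more. Alternatives were DESeq2 1.42.0, its size factors, library size only, other count filters, leaving out each library, and adding pseudogene counts. A sum of Rbmx and Rbmxl1 was chosen after seeing the data.

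The genes and gene lists were chosen with earlier results of these data known. Named were all 10 genes, called genes of the other hnRNP family list (up to 6 largest changes each way), Mettl3, pseudogenes with at least 100 counts on average, and sites that scored highest, were shared, were intronic, lay outside DRACH or had the same window in human.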

Additional observations from a re-analysis of the deposited data

How the results depend on the processing

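Of the 10 hnRNP genes, 9 were tested in the main comparison and 2 were called. Without a filter on low counts 10 were tested and 3 called (Rbmx added, −0.64). With library size only 1 was called, and between 1 and 3 when 1 library was left out. Over all genes, the calls were 4669 of 15731 in the main comparison, 6406 of 31057 without the filter and 4136 of 15731 with library size only. With Rbmx and Rbmxl1 summed, a setting chosen after seeing the data, 3 were called and Rbmx turned to 0.51. Hnrnph1 was called in all 14 settings, at log2 fold changes of −0.82 to −0.64. Hnrnpc ranged from −0.54 to −0.40 over the fits that left out 1 library and was −0.40 with library size only, where its call was lost. Rbmx ranged from −0.96 to −0.31 over those fits, Hnrnpd from −0.36 to 0.077 and Hnrnpm from −0.22 to 0.18, and Hnrnpm was 0.06 with library size only. The cause of these shifts was not tested.

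With the replicate block, 2 of the 10 genes were again called, and the other family count went from 8 to 11, while 6 were called with library size only and 1 to 8 with 1 library left out. Over all genes the block gave 6837 calls against 4669, and leaving out 1 library 2761 to 5412. The block changed no call among the 10 genes.

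For the sites, keeping those at or above the list median score left 5 of 13 exonic mESC sites and 7 of 18 HEK293T sites, and 1 of 3 human windows had no difference from a HEK293T site, or 4 with up to 5 differences. The lists carry no read depth, which limits what an unlisted position shows.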
